A study of Mus musculus with 5 samples.

Results

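Voltage-gated calcium and sodium channel genes were followed across the neuron and glial classes of mouse hippocampal nuclei. Members were all genes whose symbol starts with Cacna1, Cacna2d, Cacnb or Cacng, or is Scn followed by a number and a or b, with at least 50 unique molecular identifiers (UMIs, counted RNA molecules) over the 5 libraries. Of 40 matching symbols among 32285 genes, 37 qualified. They were 9 calcium channel pore genes, 8 sodium channel pore genes, 4 alpha-2-delta genes, 4 calcium channel beta genes, 8 gamma genes and 4 sodium channel beta genes. Cacna1s (48 UMIs), Scn10a (27 UMIs) and Scn4a (6 UMIs) fell below the minimum. The members' totals ran from 63 UMIs for Cacng1 to 848757 UMIs for Cacnb2.

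The study profiled single nuclei of the hippocampus by 10x Multiome, which reads RNA and open chromatin from the same nucleus. There were 5 libraries, 1 per group: wild type mice, 5xFAD mice (a transgenic Alzheimer's disease model), and 5xFAD mice labelled as lacking MAGL in astrocytes, in neurons or globally. MAGL, encoded by Mgll, is the main enzyme that breaks down the endocannabinoid 2-arachidonoylglycerol. The 4 groups other than wild type all carry the 5xFAD transgenes, and the labels name neither the Cre driver nor the age or number of animals. Where 5 values follow each other, the first is wild type, the second 5xFAD, and the last 3 are the libraries labelled 5xFAD astrocyte MAGL-KO, then 5xFAD neuron MAGL-KO, then 5xFAD global MAGL-KO.

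Voltage-gated calcium and sodium channels open when the membrane depolarizes. Each has a pore-forming subunit (Cacna1 or Scn with a final a) that sets the type of current, and auxiliary subunits that set how much of the channel reaches the membrane and how it gates. Sodium channels start and carry the action potential, calcium channels couple it to transmitter release, to dendritic signalling and to gene expression, and most of the gamma genes encode proteins that sit on AMPA-type glutamate receptors instead.

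The libraries held 3917 to 7031 nuclei after filters, with medians of 13728 to 17063 UMIs per nucleus, and cell classes were built from the other genes, with all 37 members left out of the clustering. Of 26778 nuclei, 7589 stayed unnamed and were not used in the classes described here. Where classes were instead taken from marker scores, as an alternative, every nucleus went to the class of its highest score, so those classes also hold nuclei that the clustering left unnamed. Each library held nuclei of both sexes: 35.4% to 71.8% of nuclei had Xist UMIs only and 15.7% to 50.4% had Y-linked UMIs only, while 10.6% to 15.1% had both, which 1 nucleus does not normally give. Levels are in CPM (counts-per-million, a gene's UMIs scaled to all UMIs of the class). Defining markers differed between most classes: median Slc17a7 was 153 to 254 CPM in excitatory classes, but also 112 CPM (29.9 to 167) in microglia, which overlapped subicular nuclei. Median Gad2 was 198 and 238 CPM in the inhibitory classes and at most 1.62 CPM in excitatory ones, and median Pdgfra was 621 CPM in oligodendrocyte precursors. Libraries shared 0.694% to 1.16% of the barcodes of the smaller one. Mgll itself stood at 72.0, 74.2, 95.1, 97.9 and 87.1 CPM in excitatory nuclei and at 514, 398, 497, 441 and 429 CPM in astrocytes. In inhibitory nuclei it stood at 74.0, 82.6, 88.6, 78.9 and 74.8 CPM. It was thus not lower than in the 5xFAD library in astrocytes of the library labelled astrocyte MAGL-KO, in excitatory nuclei of the one labelled neuron MAGL-KO, or in both of these classes of the one labelled global MAGL-KO. In inhibitory nuclei it was lower than in 5xFAD in the libraries labelled neuron and global MAGL-KO, with counting intervals that overlap that of 5xFAD. Gene-level values do not show which exons were deleted. Those libraries are therefore named by their labels.

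Promoter sequences of 4 members whose RNA and start chromatin are set side by side below are shown first. For each, the 250 bases before the transcription start are printed 5′ to 3′ on the gene's strand, from RefSeq (GRCm38.p6), and capitals mark GGGCGG, the GC box bound by Sp family factors, on either strand (printed as CCGCCC where it lies on the other strand).
Cacna2d2: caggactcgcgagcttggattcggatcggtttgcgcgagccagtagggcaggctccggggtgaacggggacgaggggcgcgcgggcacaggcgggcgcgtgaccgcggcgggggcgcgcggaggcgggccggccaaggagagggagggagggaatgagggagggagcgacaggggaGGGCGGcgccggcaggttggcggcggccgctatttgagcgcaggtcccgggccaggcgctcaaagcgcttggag
Cacna2d1: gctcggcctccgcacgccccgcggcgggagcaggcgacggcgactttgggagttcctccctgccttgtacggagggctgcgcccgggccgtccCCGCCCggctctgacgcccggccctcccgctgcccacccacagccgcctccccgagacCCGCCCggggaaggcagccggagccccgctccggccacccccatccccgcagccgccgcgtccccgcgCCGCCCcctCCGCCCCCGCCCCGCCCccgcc
Cacng5: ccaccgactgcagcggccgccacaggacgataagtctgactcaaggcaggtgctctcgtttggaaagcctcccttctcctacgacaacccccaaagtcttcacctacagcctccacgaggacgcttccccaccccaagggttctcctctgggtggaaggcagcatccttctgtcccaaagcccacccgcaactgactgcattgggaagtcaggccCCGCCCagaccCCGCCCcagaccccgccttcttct
Scn1a: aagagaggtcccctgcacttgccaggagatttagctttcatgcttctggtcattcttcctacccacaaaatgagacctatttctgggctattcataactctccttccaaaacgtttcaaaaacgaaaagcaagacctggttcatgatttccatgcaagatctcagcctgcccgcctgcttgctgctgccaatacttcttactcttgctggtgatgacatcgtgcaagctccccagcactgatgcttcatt
These lie at chr9:107399630-107399879, plus strand, at chr5:15934441-15934690, plus strand, at chr11:107915056-107915305, minus strand and at chr2:66440838-66441087, minus strand. Cacna2d2 and Cacna2d1 encode closely related subunits and both have GC-rich promoters, with 74.4% and 82.4% G and C. The Cacna2d1 window held 6 GC boxes and the Cacna2d2 window held 1. The Scn1a window, at 46.8% G and C, held none, and the Cacng5 window held 2. GGGCGG on either strand occurred in 14 of 38 promoters of members (36.8%) and in 32.7% of all 32851 promoters of the same length, and TATAAA, also on either strand, in 2 of 38 and 12.4%. Median G and C content was 56.4% over the members' promoters and 52.4% over all.

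Among calcium channel pore genes, the L-type gene Cacna1c and the R-type gene Cacna1e differed several-fold between classes of neurons. Cacna1c, the main L-type pore of brain and heart, was at 1498, 1533, 1792, 1731 and 1693 CPM in CA3 pyramidal nuclei, 1244, 1355, 1510, 1489 and 1424 CPM in dentate granule nuclei and 483, 429, 584, 636 and 543 CPM in CA1 pyramidal nuclei. CA3 and granule nuclei overlapped, and both lay above every CA1 library. Cacna1d, the L-type pore that opens at lower voltage, varied less, with median levels from 225 CPM in subicular to 574 CPM in deep cortical nuclei. Cacna1e, the R-type pore, was at 1278, 1320, 1382, 1375 and 1453 CPM in granule nuclei and 123, 97.4, 153, 148 and 140 CPM in Lhx6 inhibitory nuclei, here clusters 17, led by Sst, Lypd6b and Nxph1, and 23. Its level in the lowest granule library was above that in the highest library of every other class.

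The pore genes of transmitter release had their own order. Cacna1a, the P/Q-type pore that triggers release at most fast synapses, was highest in CA3 (992, 1046, 1206, 1162 and 1065 CPM) and CA2 nuclei (952, 971, 1040, 1085 and 1033 CPM), which overlapped. Lhx6 inhibitory nuclei followed at 687, 754, 722, 758 and 702 CPM, while granule nuclei were at 329, 335, 357, 365 and 331 CPM. Cacna1b, the N-type pore, was highest in Adarb2 inhibitory nuclei, here a single cluster led by Vip, Frem1 and Adarb2, at 349, 348, 388, 351 and 372 CPM, against 141, 141, 145, 151 and 162 CPM in granule nuclei.

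T-type pore genes, which carry low-threshold calcium current and support burst firing, were ordered differently across classes. Cacna1g was highest in subicular nuclei (median 45.5 CPM, 39.1 to 50.3 over the libraries), with 32.2 CPM (31.3 to 38.6) in CA1 and 6.11 CPM (3.46 to 13.6) in granule nuclei. Cacna1h was highest in granule nuclei (48.3, 53.7, 60.2, 63.8 and 58.6 CPM) and was at 5.64 CPM (3.43 to 6.29) in Lhx6 inhibitory nuclei. Granule nuclei overlapped subicular nuclei for Cacna1h. Cacna1i, the slow T-type pore, was at 38.5 CPM (27.5 to 40.5) in upper cortical nuclei, 37.1 CPM (33.5 to 38.2) in CA1, 34.3 CPM (27.7 to 43.6) in CA3 and 11.4 CPM (10.2 to 14.9) in granule nuclei. Its upper cortical, CA1, CA3, subicular and deep cortical levels overlapped. Cacna1f, the L-type pore of the retina, reached a median of 2.17 CPM at most, in deep cortical nuclei.

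Of the sodium channel pore genes, Scn2a and Scn8a spanned a narrower range of median levels across neuron classes (1.42 and 1.70 times from lowest to highest) than Scn1a and Scn3a (2.80 and 3.48 times). Scn2a, which serves the early axon and unmyelinated axons, had median levels from 399 to 565 CPM across the 9 neuron classes, and Scn8a, the pore of the mature axon initial segment and nodes, from 287 to 488 CPM. For Scn2a, neuron classes next to each other in the order of medians overlapped. For Scn8a, CA2 nuclei lay above every other class, and both inhibitory classes lay below all excitatory classes. Scn1a, the pore on which fast-spiking interneurons rely, was at 521, 530, 523, 483 and 568 CPM in Lhx6 inhibitory nuclei and 191, 194, 192, 166 and 201 CPM in granule nuclei. Lhx6 nuclei overlapped Adarb2 inhibitory nuclei (median 436 CPM, 386 to 497), which in turn overlapped subicular nuclei (median 354 CPM, 341 to 406), and lay above granule nuclei in every library. Scn3a, a pore gene best known from the developing brain, was highest in granule nuclei at 303, 316, 306, 276 and 287 CPM, and every other class was lower in all libraries.

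Other sodium channel pores are best known outside the brain. Scn9a, the pore of nociceptive neurons, was at 73.3 CPM (64.0 to 94.1) in Lhx6, 70.6 CPM (60.3 to 86.0) in Adarb2 and 45.7 CPM (41.8 to 63.9) in granule nuclei, and at 3.74 CPM (0 to 9.92) in CA2. Lhx6 and granule nuclei did not overlap for Scn9a, while Adarb2 nuclei overlapped both. Scn7a, a sodium-sensing relative, stayed at medians of 6.63 CPM or less, and Scn11a, another nociceptor pore, at 0.178 CPM or less.

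**Figure D1:**
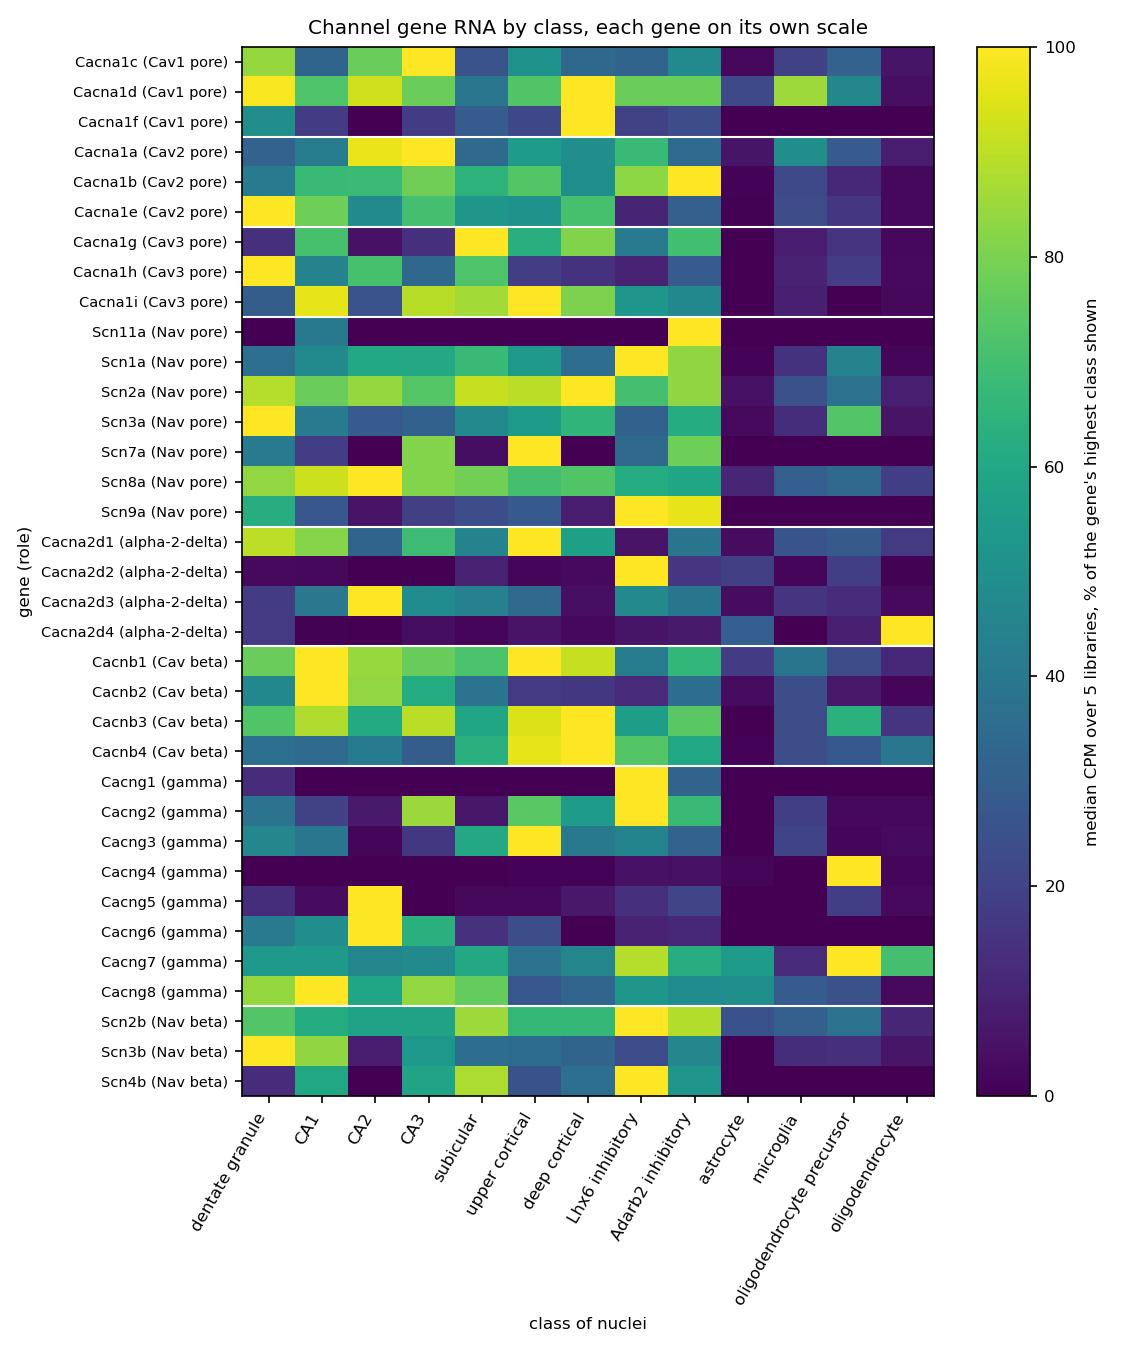
Median CPM over the 5 libraries of the members described (rows, by role) in each class (columns), as a percent of that gene's highest class (colour, 0 to 100). Cacna2d2 (160 CPM in Lhx6 inhibitory nuclei), Cacng4 (456 CPM in oligodendrocyte precursors) and Cacng5 (36.4 CPM in CA2) have a single bright class among those plotted, which leave out inhibitory cluster 18 (Cacng5 16.4 to 64.3 CPM), while Scn2a and Scn8a are above the middle of the colour scale in every neuron class.

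Alpha-2-delta subunits bring calcium channels to the membrane, and Cacna2d1 and Cacna2d2 bind gabapentin. Between Lhx6 inhibitory and CA1 nuclei the genes of this pair were arranged in opposite ways. Cacna2d2 was at 155, 161, 160, 165 and 153 CPM in Lhx6 inhibitory nuclei and 2.31, 1.32, 3.19, 5.84 and 3.83 CPM in CA1 nuclei. Cacna2d1 was at 114, 47.1, 72.5, 83.6 and 47.4 CPM in Lhx6 inhibitory nuclei and 1477, 1360, 1069, 1055 and 1163 CPM in CA1 nuclei. The classes did not overlap for either gene, and the order was turned round between them. Cacna2d3 was highest in CA2 nuclei at 2936, 2780, 2872, 2606 and 3065 CPM and lowest among neurons in deep cortical nuclei at 113, 125, 93.2, 102 and 186 CPM. Cacna2d4 was highest in oligodendrocytes, at 27.1, 16.1, 32.8, 15.3 and 19.4 CPM.

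Beta subunits bind the pore inside the cell and are needed for it to reach the membrane. Cacnb2 led in CA1 (median 2874 CPM, 2673 to 2912) and CA2 nuclei (median 2408 CPM, 2124 to 2754), which overlapped, and was at 346 CPM (285 to 361) in Lhx6 inhibitory nuclei. Cacnb4 was highest in deep and upper cortical nuclei (median 918 CPM, 744 to 1060 and median 884 CPM, 784 to 968) and lowest among neurons in CA3 (median 270 CPM, 260 to 322). Cacnb1 had medians from 12.1 to 28.6 CPM and Cacnb3 from 7.38 to 13.3 CPM across neuron classes.

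Gamma genes were highest in several classes. Cacng2, encoding stargazin, was highest in Lhx6 inhibitory nuclei (median 119 CPM, 116 to 138), and within pyramidal cells was at 84.0, 103, 71.7, 103 and 101 CPM in CA3 and 23.1, 25.6, 19.7, 23.7 and 25.7 CPM in CA1. Cacng3 was highest in upper cortical nuclei (median 260 CPM, 209 to 288) and was at 4.41 CPM (1.87 to 5.41) in CA2. Cacng8, the main gamma gene of the hippocampus, was highest in CA1 (median 153 CPM, 148 to 155), and Cacng7 in oligodendrocyte precursors (median 84.5 CPM, 65.9 to 106) and Lhx6 inhibitory nuclei (median 75.2 CPM, 70.2 to 78.7), which overlapped. Cacng5 was at 49.6, 55.4, 29.8, 29.1 and 36.4 CPM in CA2 nuclei and 2.10, 0.537, 0, 0 and 0.128 CPM in the neighbouring CA3. CA2 lay above the other plotted classes in all libraries for Cacng5, though inhibitory cluster 18, described below, was higher in 2 of them, and CA2 held only 21 to 35 nuclei per library. Cacng4 was a precursor gene, described below, and Cacng1 and Cacng6, which belong to muscle and heart channels, stayed at medians of 2.20 CPM or less.

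Sodium channel beta subunits, adhesion proteins that modulate gating, come last. Scn3b was at 126 CPM (103 to 154) in granule and 105 CPM (91.9 to 145) in CA1 nuclei, which overlapped, and 29.0 CPM (23.4 to 34.8) in Lhx6 inhibitory nuclei. Scn2b ranged from 13.1 to 22.8 CPM across neuron classes. Scn4b, the subunit of resurgent current, stayed at medians of 2.05 CPM or less.

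Levels of different genes were compared only per length, because nuclear RNA holds introns and long genes collect more UMIs. Per 100 kb of gene, high members in excitatory nuclei were Cacng8 (503 CPM per 100 kb), Cacnb2 (436), Scn3b (433) and Scn2a (322). On this scale Cacna1e (232) and Scn8a (236) were close, and Cacna2d3 was at 105. The members together took a median of 1.15% of the UMIs of CA2 nuclei. Given as the median share with the lowest and highest library, they took 1.07% (1.04% to 1.09%) in CA3, 1.02% (1.01% to 1.02%) in CA1, 0.936% (0.932% to 0.959%) in granule nuclei and 0.752% (0.749% to 0.776%) in inhibitory nuclei. In astrocytes the share was 0.0734% (0.0725% to 0.103%).

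Classes were then compared within libraries. UMIs were summed per class and library and tested with edgeR's quasi-likelihood test, with library as a block and Benjamini-Hochberg adjustment over all genes. A member was called where the adjusted p was under 0.05 and the log2 fold change was at least 1 in size. These p-values measure the spread between 5 libraries of different genotype, and the classes were drawn from other genes of the same nuclei. Fold changes are given as log2 ± SE, with the SE derived from edgeR's test statistic for the 5 libraries. Every called member had the same direction in 5 of 5 libraries.

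Inhibitory nuclei differed from excitatory nuclei in 11 of 35 members tested: 6 were higher (background: 9.46% of all genes tested) and 5 lower (6.53%). Among the higher were Cacng4 (4.83 ± 0.16), Cacna2d2 (4.27 ± 0.21), Cacng5 (1.78 ± 0.16), Scn4b (1.57 ± 0.36) and Scn9a (1.27 ± 0.09). Lower were Cacng6 (-1.72 ± 0.32), Cacna1h (-1.40 ± 0.06), Cacna1e (-1.39 ± 0.07), Cacna2d1 (-1.23 ± 0.05) and Scn3b (-1.03 ± 0.05). Granule nuclei made up 7874 of the 14198 excitatory nuclei, so these folds need not hold against each excitatory class. For Cacna1h, Adarb2 inhibitory nuclei overlapped CA3 nuclei and lay above upper cortical nuclei. For Scn4b, Lhx6 inhibitory nuclei overlapped subicular nuclei, and Adarb2 nuclei overlapped CA3 nuclei. For Cacng5, CA2 nuclei lay above both Lhx6 and Adarb2 nuclei. Adarb2 nuclei also overlapped CA3 and subicular nuclei for Scn3b, subicular and CA2 nuclei for Cacna2d1, and granule nuclei for Scn9a. The largest adjusted p among called members in edgeR was 0.00315. With nuclei assigned by marker score alone, 6 of these 11 calls were lost, among them Scn9a, Cacna2d1, Scn3b, Scn4b (log2 -0.10) and Cacng5 (0.42). With the members included in the clustering, Cacna1e (-0.99), Cacna2d1 and Scn3b were no longer called. No Lhx6 class was named in that clustering, so its inhibitory class held no nuclei of that name. The part this played was not tested. Scn1a, the pore linked to interneurons, was not called (log2 0.78 ± 0.04). The members' median log2 was -0.15 beside 0.02 over all genes.

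Of the sodium channel partners listed (clustering, scaffold and leak channel genes), 3 of 13 were higher and none lower in inhibitory nuclei: Fgf13 (2.18 ± 0.07), Fgf11 (1.25 ± 0.11) and Fgf12 (1.21 ± 0.04), which encode intracellular proteins that bind the sodium channel's tail. Of 20 calcium channel partners, 3 were higher, Elfn1 (3.58 ± 0.11), Gem (2.75 ± 0.30) and Stac2 (1.78 ± 0.09), and 2 lower, Ryr1 (-1.53 ± 0.10) and Ryr2 (-1.01 ± 0.05).

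Cacng5 and Cacna1e were uneven within inhibitory nuclei. Cluster 18, led by Zic1 and Ano1 and assigned to neither interneuron class, held 48, 151, 107, 60 and 97 nuclei. Its Cacng5 level was 34.0, 30.1, 41.2, 64.3 and 16.4 CPM and its Cacna1e level 1028, 974, 947, 1018 and 940 CPM. The share of cluster 18 in the inhibitory class differed between libraries, and its part in the class values of these genes was not tested.

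Among interneurons, Lhx6 and Adarb2 nuclei differed in 9 of 31 members tested, 1 higher in Lhx6 nuclei (background 3.69%) and 8 lower (6.63%). Cacna2d2 was the 1 that was higher (2.65 ± 0.08), from 19.2, 30.4, 27.7, 25.0 and 19.6 CPM in Adarb2 nuclei to 155, 161, 160, 165 and 153 CPM in Lhx6 nuclei. Cacna2d1 was the largest lower member (-3.01 ± 0.12), at 642, 555, 483, 590 and 475 CPM in Adarb2 nuclei. Cacna2d2 and Cacna2d1 were thus called in opposite directions here and between inhibitory and excitatory nuclei. Others lower in Lhx6 nuclei were Cacna1h (-1.81 ± 0.15), Cacna1e (-1.74 ± 0.07), Cacnb2 (-1.72 ± 0.05), Scn7a (-1.42 ± 0.29), Scn3a (-1.09 ± 0.06) and Scn3b (-1.01 ± 0.09). Among called members the largest adjusted p in edgeR was 0.00120.

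The Adarb2 class also held more nuclei with both Xist and Y-linked UMIs (26.1% against 7.16% of Lhx6 nuclei), and more Slc17a7, the vesicular glutamate transporter of excitatory neurons (83.6 against 12.6 CPM). With those nuclei left out, a choice made after seeing the data, Cacna2d2 (2.73) and Cacna2d1 (-3.47) kept their calls. Scn3b (-0.88) fell short of the fold and lost its call. Cacna1a (1.13), already higher in Lhx6 nuclei in the main comparison, was among those newly called. Scn3b was also not called without the 5xFAD library, in this contrast and in inhibitory against excitatory nuclei. With nuclei assigned by marker score alone, 6 of the 9 calls were lost, those of Cacna2d1 (-0.21), Cacna1e (-0.06), Cacnb2 (-0.42), Cacna1h (-0.50), Scn3a (-0.59) and Scn3b, while Cacna2d2 kept its call. Of 18 calcium channel partners, 2 were higher in Lhx6 nuclei, Elfn1 (1.38 ± 0.10) and Stac2 (1.25 ± 0.11), and 3 were lower, Cachd1, Ryr3 and Ryr1.

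CA1 nuclei differed from granule nuclei in 13 of 33 members tested, 5 higher (background 9.88%) and 8 lower (9.16%). Higher in CA1 were Cacna1g (2.22 ± 0.19), Scn4b (2.14 ± 0.26), Cacna1i (1.63 ± 0.08), Cacna2d3 (1.25 ± 0.05) and Cacnb2 (1.13 ± 0.04). Of the T-type pores, Cacna1g and Cacna1i were thus higher and Cacna1h lower (-1.04 ± 0.05). The other lower members were Cacna2d4 (-4.78 ± 0.32), Cacng5 (-1.83 ± 0.16), Cacna1f (-1.48 ± 0.36), Cacna1c (-1.35 ± 0.05), Scn9a (-1.30 ± 0.09), Scn3a (-1.20 ± 0.04) and Scn7a (-1.13 ± 0.25). Some called members had low levels. Over all excitatory nuclei Cacna2d4 was at 1.70, Cacng5 at 3.43, Scn7a at 2.34, Cacna1f at 0.905 and Scn4b at 0.770 CPM. The largest adjusted p among called members in edgeR was 0.00492. The Scn7a libraries of the 2 classes overlapped, and its call was lost without the library labelled 5xFAD astrocyte MAGL-KO. With marker scores alone, Cacnb2 (0.80), Cacna1h (-0.99) and Scn7a missed the fold.

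CA3 nuclei differed from granule nuclei in 12 of 32 members tested, 6 higher (background 9.28%) and 6 lower (11.3%). Higher were Scn4b (2.42 ± 0.34), Cacna1a (1.78 ± 0.04), Cacna1i (1.63 ± 0.12), Cacna2d3 (1.56 ± 0.07), Cacng2 (1.08 ± 0.07) and Cacna1b (1.03 ± 0.04), so both pores of transmitter release were called. Lower were Cacng5 (-2.87 ± 0.43), Scn9a (-1.83 ± 0.09), Cacna2d4 (-1.75 ± 0.35), Scn3a (-1.55 ± 0.05), Cacna1h (-1.54 ± 0.08) and Cacng3 (-1.33 ± 0.06). Among called members the largest adjusted p in edgeR was 9.27e-04. Scn9a (-0.86), Cacng3 (-0.66), Cacng2 (0.69) and Cacna1b lost their calls when nuclei were assigned by marker score alone, and Cacna1b also did without the filter on low counts. This contrast and the CA1 contrast share the granule nuclei.

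CA3 nuclei differed from CA1 nuclei in 7 of 29 members tested, 4 higher (background 5.75%) and 3 lower (7.39%). Higher in CA3 were Scn7a (2.10 ± 0.31), Cacng2 (2.04 ± 0.06), Cacna1c (1.70 ± 0.05) and Cacna1a (1.33 ± 0.04). Lower were Cacna2d2 (-3.42 ± 0.43), Cacna1g (-2.09 ± 0.13) and Cacng3 (-1.18 ± 0.05), so stargazin's gene and Cacng3 went opposite ways between the pyramidal classes. The largest adjusted p among called members in edgeR was 2.95e-05. Cacna2d2 was low in both classes (at most 5.84 CPM), and its log2 fold change was 0.15 when nuclei were assigned by marker score alone, where Cacna1a (0.90) and Cacng3 (-0.70) also missed the fold.

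Partner genes were called in these contrasts as well. Between CA3 and granule nuclei 5 of 18 calcium channel partners were higher and 2 lower. Cachd1, an alpha-2-delta-like protein (5.47 ± 0.10), Rem2, a small G protein that inhibits calcium channels (5.02 ± 0.29), and Stac2, an adaptor of L-type channels (4.58 ± 0.23), were the largest. AMPA receptor auxiliary genes outside the gamma family had 1 of 6 higher and 3 lower, with Gsg1l (-6.95 ± 0.12) the largest. Between CA3 and CA1, 4 of those 6 were lower and none higher, and 5 of 18 calcium channel partners were higher and 2 lower. Between CA1 and granule nuclei, 6 of 18 calcium channel partners were higher and 2 lower, and of 13 sodium channel partners Fgf11 (3.19 ± 0.17) was higher and Fgf13 (-1.17 ± 0.05) lower.

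**Figure D2:**
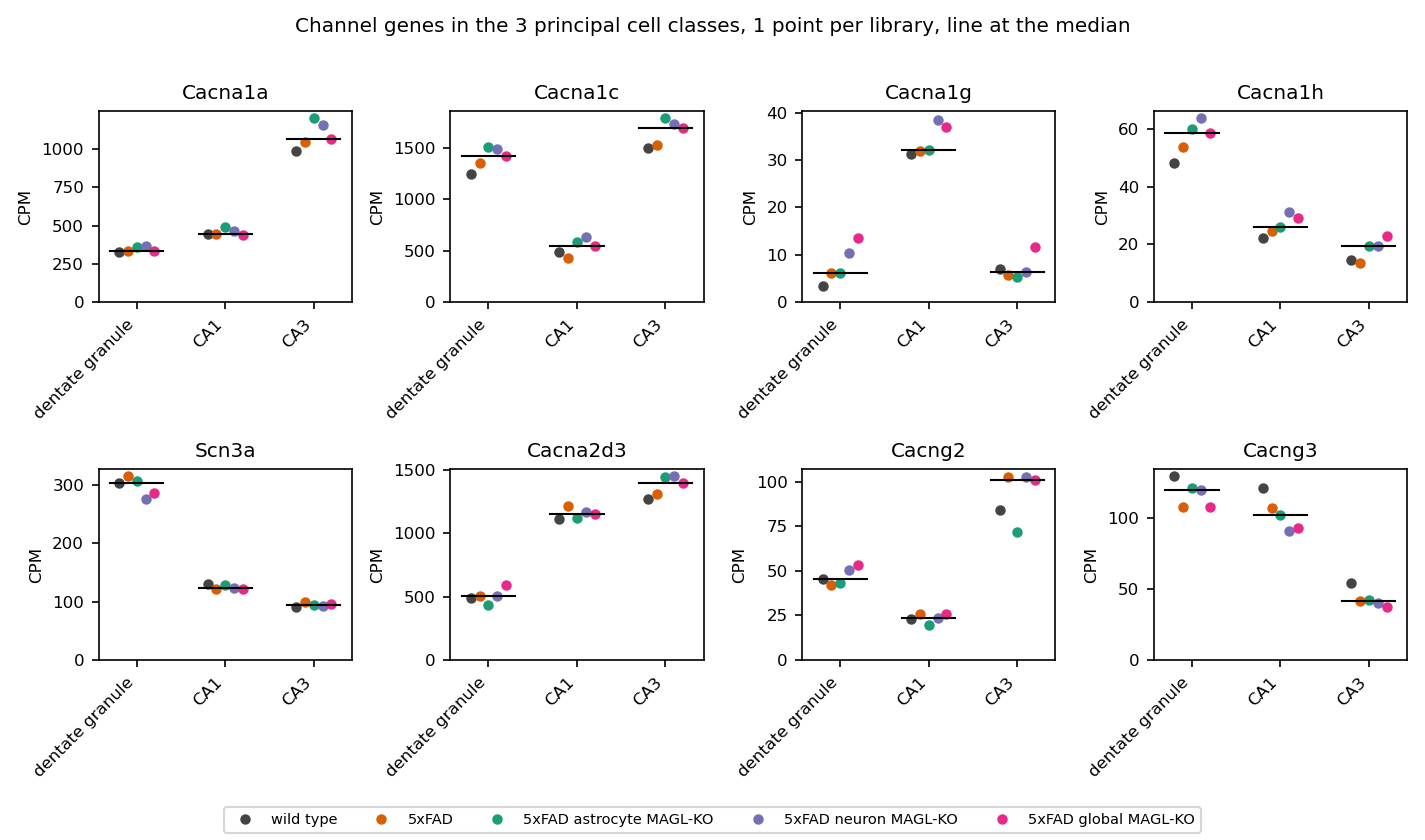
Level of 8 members in granule, CA1 and CA3 nuclei, in CPM on axes from 0, with 1 point per library and a line at the median. All Cacna1a and Cacng2 points of CA3 lie above those of CA1, all Cacna1g points of CA1 lie above those of CA3 and granule nuclei, and all Scn3a points of granule nuclei lie above the rest.

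The members took 0.403% (0.389% to 0.485%) of the UMIs of oligodendrocyte precursors and 0.126% (0.111% to 0.131%) of those of oligodendrocytes. Cacng4, a gamma gene, was at 496, 456, 440, 489 and 422 CPM in precursors and 11.6, 2.42, 6.95, 20.9 and 1.49 CPM in oligodendrocytes. Scn1a was at 228, 245, 245, 224 and 233 and 9.68, 21.8, 4.97, 8.85 and 10.4 CPM, and Cacna1c at 488, 461, 563, 533 and 634 and 87.2, 123, 79.4, 129 and 94.0 CPM. The classes did not overlap for these 3 genes.

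In the test, 15 of 18 members tested were called, 14 higher in precursors (background 18.2%) and 1 lower (13.6%). Higher were the pore genes Scn1a (4.42 ± 0.20), Scn3a (3.97 ± 0.20), Cacna1d (3.54 ± 0.20), Cacna1e (3.16 ± 0.21), Cacna1b (2.46 ± 0.27), Cacna1c (2.43 ± 0.13), Scn2a (2.39 ± 0.15), Cacna1a (2.02 ± 0.11) and Scn8a (1.11 ± 0.12). The higher auxiliary genes were Cacng4 (5.70 ± 0.24), Cacna2d2 (4.52 ± 0.42), Cacng8 (3.05 ± 0.29), Cacnb2 (2.37 ± 0.25) and Cacna2d3 (2.37 ± 0.12). Cacna2d4 was lower in precursors (-3.57 ± 0.48). Among called members the largest adjusted p in edgeR was 4.79e-06. Neuronal RNA carried into these classes is given next, and 19 members with few glial UMIs were not tested.

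Neuronal RNA carried into glial nuclei was gauged by a list of 11 neuron genes that are not channels, each as its level in the glial class in percent of its level in excitatory nuclei. The list's median was 6.28% in oligodendrocytes (2.46% to 33.9% over the genes), 14.1% in precursors (2.98% to 47.4%), 7.31% in astrocytes (2.13% to 134%) and 37.5% in microglia (29.0% to 95.4%). By library the median was 7.45%, 10.4%, 14.1%, 7.20% and 20.5% in precursors and from 4.21% to 7.95% in oligodendrocytes. Precursors were higher in 4 of 5 libraries, and lower in the one labelled 5xFAD neuron MAGL-KO. Above the highest of these 11 genes, with at least 10 UMIs in the class, were 13 members in precursors, 4 in oligodendrocytes, 3 in microglia and 1 in astrocytes. In precursors these included Cacng4, Scn1a (97.1% of excitatory nuclei), Scn3a (112%), Scn2a (48.3%), Cacna1c (50.8%) and Cacna1d (54.2%). Of the 14 higher members of the contrast, 6 were not above the list: Cacna1e (19.9%), Cacnb2 (11.0%), Cacna1b (18.4%), Cacng8 (30.2%), Cacna2d3 (42.9%) and Scn8a (41.9%). What carried-over RNA contributed to them was not tested.

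In oligodendrocytes the members above the list were Cacnb4 (83.9% of excitatory nuclei), Cacng7 (129%), Cacna2d4 and Cacng4. Cacnb4, a beta gene, was at 379, 360, 262, 347 and 373 CPM there. In microglia Cacna1a and Cacna1d were among the members above the list, and the class summed to only 179584 to 358605 UMIs per library. In astrocytes the 1 member was Cacna2d2, on 24 UMIs, while Cacng4 and Cacna2d4 had higher percentages than the list on 7 and 6 UMIs. Astrocytes numbered 26 to 66 nuclei per library, so low members could not be told from carried-over RNA there.

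The oligodendrocyte class held 2 clusters. Cluster 27, led by Bcas1 and Enpp6, genes of newly formed oligodendrocytes, had Scn8a at 207, 264, 238, 241 and 228 CPM, against 15.4, 19.5, 12.2, 11.2 and 23.3 CPM in the larger cluster 4 and 167, 168, 186, 158 and 194 CPM in precursors. Cluster 27 thus lay above cluster 4 in every library. Against cluster 4 alone, a choice made after seeing the data, the precursor fold change of Scn8a was 3.53 ± 0.17 (edgeR, adjusted p = 2.58e-15), and Cacna2d1 was called as well (1.27 ± 0.10). Cacnb4 was at 482 CPM (301 to 634) in cluster 27 and 280 CPM (242 to 346) in cluster 4, and Cacna2d4 at 22.7 CPM (16.3 to 31.5) and 16.9 CPM (11.2 to 33.4). Cacng4 was at 43.8, 8.15, 20.1, 56.9 and 5.07 CPM in cluster 27 and 1.28, 0, 0, 1.25 and 0 CPM in cluster 4, on 47 and 2 UMIs in all.

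Partner genes were called in both directions in the precursor contrast. Of 12 sodium channel partners 8 were higher and 3 lower in precursors. The lower ones, Nfasc (-3.52 ± 0.11), Ank2 (-1.38 ± 0.09) and Ank3 (-1.21 ± 0.10), encode the adhesion protein and ankyrins of nodes and paranodes. Sptbn4, the spectrin of nodes and the axon initial segment, was higher (2.54 ± 0.28), as were Fgf14 (4.57 ± 0.15) and Fam155a (4.41 ± 0.22). Of 12 calcium channel partners 9 were higher and none lower, with Elfn1 (5.51 ± 0.34) the largest. The 3 AMPA receptor auxiliary genes tested, Shisa6, Shisa7 and Shisa9, were all higher.

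**Figure D3:**
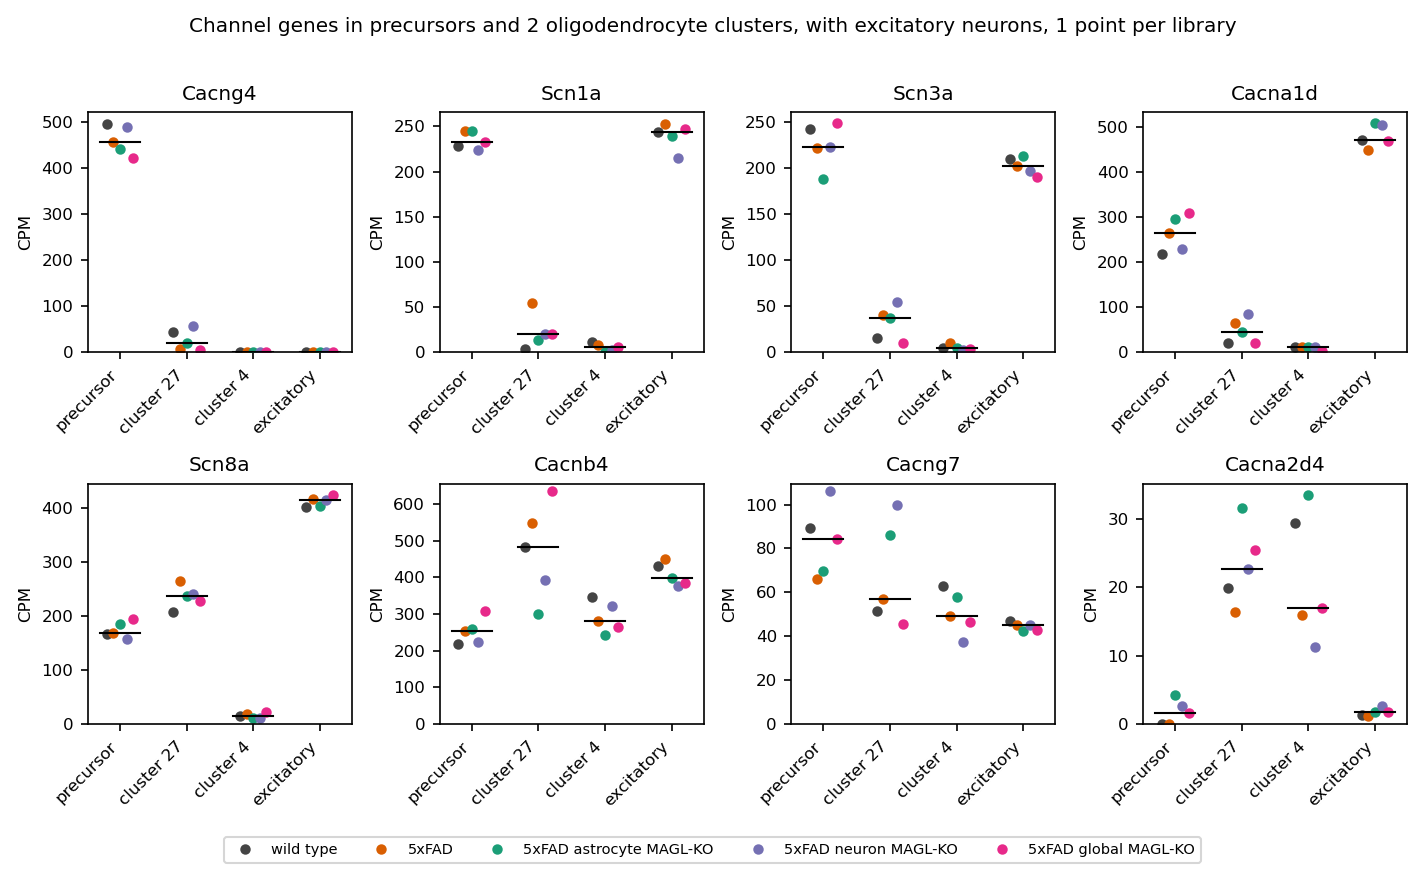
Level of 8 members in oligodendrocyte precursors, in clusters 27 and 4 of the oligodendrocytes and in excitatory neurons, in CPM on axes from 0, with 1 point per library and a line at the median. Among the glial groups Scn8a is highest in cluster 27 (median 238 CPM, against 168 CPM in precursors and 15.4 CPM in cluster 4), while Cacng4 is highest in precursors.

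Open chromatin was read at the members' starts as transposase cut-site CPM, counts of cut sites scaled to all cut sites of the class, in listed peaks within 1000 bases of a start. RefSeq gave starts for 27 members and the principal GENCODE vM21 transcript for 5 more. Of 42 starts, 32 had a peak in all 5 libraries and 7 in none. Starts of Cacna1a, Cacna1g, Cacna1h and Cacna2d4 were not used here.

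Cacng4 and Cacna2d2 differed between classes both in RNA and in cut sites at their starts. The Cacng4 start held 90.1, 93.4, 68.9, 102 and 80.8 cut-site CPM in precursors and 2.87, 5.68, 1.14, 6.29 and 3.63 in oligodendrocytes. The Cacna2d2 start, with the GC-rich window shown above, held 38.0, 36.4, 31.4, 48.7 and 26.0 in Lhx6 inhibitory nuclei, 18.9, 17.9, 16.5, 13.8 and 20.3 in Adarb2 inhibitory nuclei and 2.59, 2.90, 2.14, 3.28 and 1.56 in granule nuclei. None of these groups overlapped. In CA1 the Cacna2d2 start held 5.01 (3.78 to 5.15), above granule nuclei without overlap, although its RNA was not called between them (log2 -0.01). This RNA did not go one way over the libraries. It was higher in CA1 in the 5xFAD library, and higher in granule nuclei in those labelled 5xFAD neuron and global MAGL-KO. In wild type the CA1 level was above that of each large granule cluster, listed below with the genotypes. In the MAGL-KO libraries the granule level was higher in cluster 3 than in clusters 0 and 1, also listed below. The Cacna2d2 start was also open in precursors, at 28.7 (21.6 to 38.0), and in astrocytes, at 27.2 (13.8 to 58.1). Precursors and astrocytes overlapped Lhx6 nuclei in cut sites.

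Cacna2d1, with 6 GC boxes, had the opposite order between interneuron classes, 7.31 (3.14 to 12.7) cut-site CPM in Lhx6 and 19.9 (18.1 to 21.5) in Adarb2 inhibitory nuclei, which did not overlap. The upstream Cacng5 start had 5.10, 5.79, 15.8, 15.4 and 14.4 in CA2 and 4.87, 3.91, 3.59, 5.58 and 2.89 in granule nuclei. CA2 was higher within each library, narrowly so in wild type. The classes overlapped over libraries, and CA2 sums held only 388683 to 783743 cut sites. The Scn1a start had few cut sites in most classes. This start, without a GC box, held 4.45, 0, 0, 1.96 and 0 cut-site CPM in precursors, whose Scn1a RNA was 233 CPM (224 to 245), a median of 1.90 in granule nuclei, 1.83 (1.57 to 3.64) in CA1 and 12.3 (5.70 to 17.3) in Lhx6 inhibitory nuclei. Cacnb1 differed by start: its first start held 58.8 (34.4 to 65.8) in astrocytes and its second 4.54 (0 to 12.5).

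Across contrasts, cut sites at members' starts were compared by whether the 5 libraries of each class overlapped. Members counted here had been tested in the RNA contrast and had a peak in all libraries. The background genes also had a peak in all libraries but were not filtered on RNA, so the sets are unlike. Between precursors and oligodendrocytes, 11 of the 15 tested members with a peak in all libraries were higher and none lower, where 11.6% of 14920 genes with a RefSeq start were higher and 11.0% lower. Of the 12 among them whose RNA was called, 9 had higher cut sites without overlap, among them Cacng4, Cacna2d2, Cacna1d, Cacna1b and Scn2a. Between Lhx6 and Adarb2 nuclei 1 of 26 was higher (background 7.65%) and 2 lower (2.75%), namely Cacna2d2, Cacna2d1 and Cacnb2, each the same way as its RNA.

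In the other contrasts the background differed from one to the next. Inhibitory nuclei had 8 of 28 members higher than excitatory nuclei and 3 lower, where all genes had 40.1% and 5.72%. CA1 had 1 of 27 higher and 8 lower than granule nuclei, against 9.14% and 43.7%, and CA3 had none of 26 higher and 5 lower, against 7.61% and 38.3%. Between CA3 and CA1, none of 25 was higher and 2 were lower, against 6.35% and 8.47%. Cacna1c and Scn3a, called in RNA between CA1 and granule nuclei, had overlapping cut sites. No called member in any contrast had cut sites that went without overlap against its RNA. In each contrast with granule nuclei, 8 of 9 called members with peaks had overlapping cut sites. Such overlap held for 4 of 5 between CA3 and CA1 and 4 of 9 between inhibitory and excitatory nuclei. It held for 4 of 7 between Lhx6 and Adarb2 nuclei and 3 of 12 between precursors and oligodendrocytes. Shares over all genes called in RNA were not counted.

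**Figure D4:**
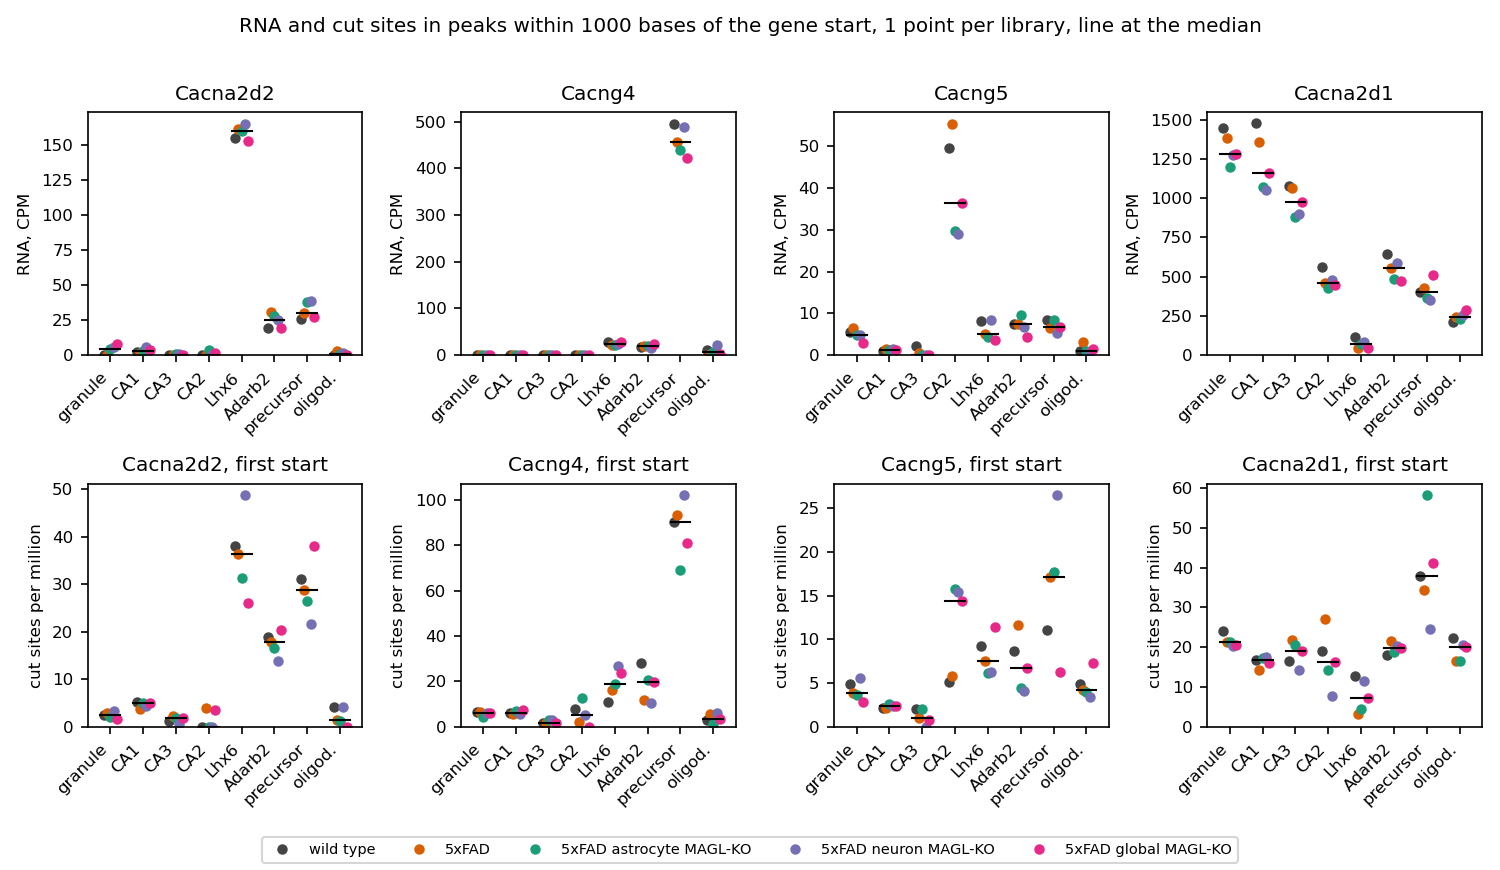
RNA in CPM (top) and cut-site CPM in peaks within 1000 bases of the first start (bottom) for Cacna2d2, Cacng4, Cacng5 and Cacna2d1 in 8 classes, with 1 point per library and a line at the median. RNA and cut sites of Cacng4 are highest in precursors, and those of Cacna2d2 have their highest medians in Lhx6 inhibitory nuclei, where the cut sites overlap those of precursors, while Cacna2d1 cut sites are highest in precursors, whose Cacna2d1 RNA is below that of granule nuclei.

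Genotypes were compared within granule, CA1, CA3 and inhibitory nuclei. With 1 library per group there is no test: each ratio is given with an exact 95% interval that covers counting error only, and differences between animals, sexes or preparations cannot be told apart from genotype. The log2 ratio used a pseudocount of 5 CPM, while the interval is of the plain ratio without it, so it can lie farther from 0 for low genes. In each comparison the labelled library comes first and its reference second. A member was past the fold where the log2 ratio was at least 0.5 in size and the libraries had at least 100 UMIs together. The 3 comparisons of MAGL-KO libraries share the 5xFAD library.

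Between 5xFAD and wild type few members differed past the fold. There was none of 28 with enough UMIs in granule nuclei (background 0.0679% of genes higher and 0.229% lower) and none in CA3 (0.542% and 1.25%). In CA1 the 1 member was Scn9a, the nociceptor pore, at 15.7 against 24.4 CPM (log2 ratio -0.50, interval -0.89 to -0.38, on 202 and 337 UMIs), where 1.17% of genes were lower. Scn9a was not past the fold with median-of-ratios size factors, marker-score classes or Xist nuclei only, or without nuclei holding Xist and Y-linked UMIs. In inhibitory nuclei 1 member was higher, which is not reported here (background 0.819% higher). The members' median log2 ratio was 0.02 in granule and 0.01 in CA1 nuclei.

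The library labelled 5xFAD astrocyte MAGL-KO had 1 member past the fold in granule nuclei (background 5.42% higher) and 1 in inhibitory nuclei (6.54% higher, 0.929% lower). The first is not reported here. In inhibitory nuclei Scn7a was at 7.20 against 3.31 CPM (log2 ratio 0.56, interval 0.58 to 1.68, on 79 and 47 UMIs). In CA1 and CA3 there was none (background 6.53% and 7.43% higher, 0.540% and 1.06% lower). The median log2 ratio of all genes was itself 0.13 in granule and 0.12 in inhibitory nuclei. With median-of-ratios size factors in place of CPM, neither was past the fold, and Cacna2d1 and Scn3b were lower in CA1.

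The library labelled 5xFAD neuron MAGL-KO had 2 members past the fold in granule nuclei (background 5.48% higher). Cacna2d2 was at 6.14 against 0.404 CPM (log2 ratio 1.04, interval 2.89 to 5.17, on 108 and 8 UMIs) and Cacna2d4 at 5.28 against 2.12 CPM (log2 ratio 0.53, interval 0.78 to 1.88, on 93 and 42 UMIs). In CA1 the L-type pore Cacna1c was higher, at 636 against 429 CPM (log2 ratio 0.56, interval 0.52 to 0.62, on 6311 and 5506 UMIs), where 7.92% of genes were higher. Scn3b was lower there, at 91.9 against 145 CPM (log2 ratio -0.63, interval -0.77 to -0.54, on 912 and 1859 UMIs), where 0.726% of genes were lower. In CA3 Scn9a was lower, at 7.22 against 14.3 CPM (log2 ratio -0.66, interval -1.71 to -0.31, on 24 and 80 UMIs), where 1.44% of genes were lower and 7.49% higher. In inhibitory nuclei there was none (background 5.07% higher, 0.784% lower). The median log2 ratio of all genes was 0.10 in granule and 0.12 in CA1 nuclei. With median-of-ratios size factors Cacna2d2 was still higher in granule nuclei, Cacna2d4 was not past the fold and Scn3b was lower. Cacna2d4 was also not past the fold with marker-score classes or in Xist nuclei only. Neither gene was in Y-linked nuclei only or in granule clusters 0 and 1 alone, described below. In CA1 the same scaling left Cacna1c short of the fold, and Cacna2d1 and Scn3b were lower past the fold.

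The library labelled 5xFAD global MAGL-KO had 5 members past the fold in granule nuclei, 3 higher (background 2.04%) and 2 lower (0.495%). Cacna2d2 was higher, at 7.66 against 0.404 CPM (log2 ratio 1.23, interval 3.24 to 5.48, on 186 and 8 UMIs). Cacna1g, a T-type pore, was higher, at 13.6 against 6.11 CPM (log2 ratio 0.74, interval 0.84 to 1.46, on 329 and 121 UMIs), as was Scn7a, at 3.58 against 0.909 CPM (log2 ratio 0.54, interval 1.24 to 2.80, on 87 and 18 UMIs). Scn3b was lower, at 103 against 154 CPM (log2 ratio -0.56, interval -0.66 to -0.50, on 2501 and 3050 UMIs), as was Cacng5, at 2.80 against 6.42 CPM (log2 ratio -0.55, interval -1.64 to -0.76, on 68 and 127 UMIs). Of these 5, Cacna2d2 and Cacna1g had the largest log2 ratios, and their levels by cluster are given below.

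In CA3 of the same library all 3 T-type pore genes were higher (background 1.86%). Cacna1g was at 11.7 against 5.73 CPM (log2 ratio 0.64, interval 0.44 to 1.66, on 92 and 32 UMIs), Cacna1h at 23.0 against 13.6 CPM (log2 ratio 0.59, interval 0.36 to 1.16, on 180 and 76 UMIs) and Cacna1i at 43.6 against 27.7 CPM (log2 ratio 0.57, interval 0.38 to 0.94, on 342 and 155 UMIs). Over the 5 libraries Cacna1h in CA3 was at 14.7, 13.6, 19.5, 19.5 and 23.0 CPM, Cacna1g from 5.29 to 11.7 CPM, and Cacna1i at 35.5, 27.7, 33.0, 34.3 and 43.6 CPM, so the global MAGL-KO library was the highest of the 5 for each, and the 5xFAD reference was the lowest for Cacna1h and Cacna1i. Split by sex markers, the log2 ratio of Cacna1i was 0.52 in nuclei with Xist UMIs only and 0.71 in those with Y-linked UMIs only, that of Cacna1h 0.73 and 0.44, and that of Cacna1g 1.00 and -0.17. The Cacna1g values rest on 66 and 14 UMIs in Xist nuclei and 15 and 18 in Y-linked nuclei. With classes from marker scores, Cacna1g (0.46) and Cacna1h (0.33) were no longer past the fold, and Cacna1i was (0.59).

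In inhibitory nuclei of that library 2 members were lower (background 1.28%). Of these, Cacng5 was at 5.87 against 14.4 CPM (log2 ratio -0.84, interval -1.71 to -0.90, on 70 and 205 UMIs). With classes from marker scores, and in Xist nuclei only, Cacng5 was not past the fold. Among inhibitory clusters it was highest in cluster 18, of which the library held 97 nuclei against 151 in 5xFAD. Within cluster 18 it was at 16.4 against 30.1 CPM, on 25 and 144 UMIs, and within cluster 12 at 4.32 against 7.55 CPM, on 21 and 44 UMIs. Cluster 17 differed little, at 6.72 against 7.42 CPM, on 17 and 14 UMIs. Cluster 29 was higher, at 9.11 against 2.53 CPM, on 7 and 1 UMIs, and cluster 23 held 0 and 2 UMIs. In CA1 there was none (background 1.98% higher, 0.312% lower).

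Granule nuclei fell mostly into 3 clusters, whose sizes differed between libraries. Cluster 0 held 832, 667, 684, 388 and 622 nuclei and cluster 1 held 710, 642, 612, 445 and 703. Cluster 3, led by Pappa, Penk and Col27a1, held 36, 25, 403, 306 and 693 nuclei. In it Cacna2d2 was at 2.01, 0, 13.1, 19.6 and 21.6 CPM and Cacna1g at 0, 2.47, 9.20, 18.6 and 27.5 CPM. In cluster 0 Cacna2d2 was at 0.208, 0.735, 2.75, 1.25 and 1.40 CPM and in cluster 1 at 0.0837, 0.185, 0.251, 0.392 and 0.317 CPM, so neither main cluster reached the level of cluster 3 in the MAGL-KO libraries.

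Cluster 3 also differed by sex markers. Nuclei with Xist UMIs only made up 66.7% of its nuclei in wild type, 24.0% in 5xFAD and at least 93.5% in each MAGL-KO library. In granule nuclei with Y-linked UMIs only, Cacna2d2 was at 0.415 CPM in the library labelled 5xFAD global MAGL-KO and 0.614 CPM in 5xFAD, while in nuclei with Xist UMIs only it was at 14.2 and 0.139 CPM. With clusters 0 and 1 alone, an alternative added after seeing the data, no member was past the fold in granule nuclei of the libraries labelled astrocyte or neuron MAGL-KO, and only Scn9a was in the global one. Genotype, sex of the animals and single animals in the pools cannot be told apart here.

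**Figure D5:**
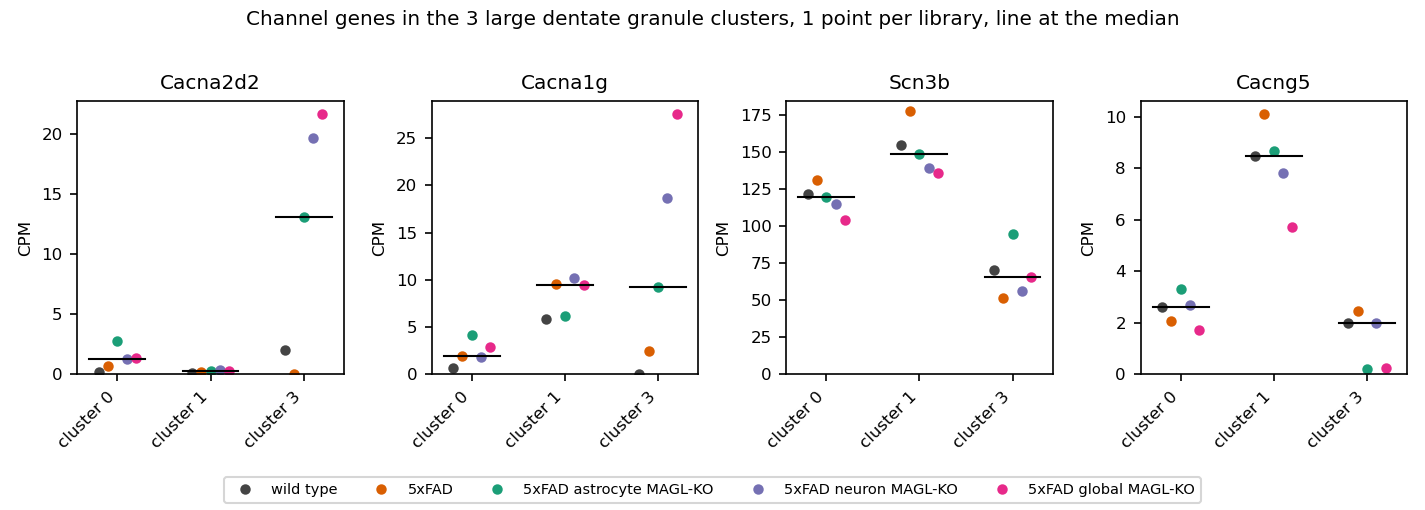
Levels of Cacna2d2, Cacna1g, Scn3b and Cacng5 in the granule clusters 0, 1 and 3, in CPM on axes from 0, with 1 point per library and a line at the median. Cluster 3 held 36 and 25 nuclei in the wild type and 5xFAD libraries and 306 to 693 in the others, where its Cacna2d2 level was 13.1 to 21.6 CPM.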

How the data were processed

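Single nuclei of mouse hippocampus were profiled by 10x Multiome in 5 libraries, 1 per group, each pooling nuclei of both sexes. The matrices hold whole-number counts as deposited: UMIs per gene and cut sites per peak and nucleus, per the file headers. The submitters' processing notes name Cell Ranger ARC 2.0.0, Seurat and mm10, and other steps are not given in the sources used here. The libraries held 4050 to 7498 nuclei and 101931020 to 159532813 UMIs.

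Nuclei were kept where 500 or more genes were seen and mitochondrial UMIs made up no more than 5%. Scrublet scores removed the top nuclei at a rate of 0.8% per 1000 nuclei, because its automatic threshold marked almost none in 4 libraries. Clustering (scanpy 1.11.5, leidenalg 0.10.2, 2000 variable genes, 40 components, 15 neighbours, resolution 1) left out the members. Clusters were named where the mean marker score reached 1.2 with no second class above 0.75 of the best score, at least 3 markers and 60% of a list raised, and at most 30% of nuclei holding both Xist and Y-linked UMIs.

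Class sums per library were tested with edgeR 4.0.16 (TMM, quasi-likelihood, library as block, adjusted p under 0.05 and log2 fold of 1 or more). The edgeR test was also run on simulated data, laid out as CA1 against granule nuclei only. There it recovered 99% of genes changed by log2 1.5 in size and 100% of those changed by 2, with 0 false calls. DESeq2 1.42.0 was an alternative. Because no label says how many animals a library holds, the p-values measure only the spread between these 5 libraries. Genotype ratios are of CPM with a pseudocount of 5 CPM, with exact conditional 95% intervals that cover counting error only. A count of 0 allows up to 3 UMIs. The members and lists were chosen with earlier results of these data known. The rule was to name every called member and every member past the fold, with at most 4 partner genes per list, a limit that some lists exceeded. A few items are not reported here. Promoters came from RefSeq (GRCm38.p6), which matched 27 of 37 members. Alternatives covered scaling, filters, the block, each library left out, naming of classes and sex-marker subsets.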

Additional observations from a re-analysis of the deposited data

Results flagged for a closer look

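Cacna1e, the R-type pore gene, had opposite ratios in inhibitory nuclei split by sex markers, in 2 comparisons that share the 5xFAD library. Between the library labelled 5xFAD astrocyte MAGL-KO and 5xFAD, the log2 ratio was -1.09 in nuclei with Y-linked UMIs only (243 against 524 CPM, on 784 and 3046 UMIs). In nuclei with Xist UMIs only it was 0.86 (380 against 207 CPM, on 1494 and 556 UMIs). Between the library labelled 5xFAD global MAGL-KO and 5xFAD, it was -1.19 in nuclei with Y-linked UMIs only (226 against 524 CPM, on 724 and 3046 UMIs) and 0.74 in those with Xist UMIs only (351 against 207 CPM, on 1862 and 556 UMIs). With 1 library per group the difference between the subsets was not tested. Cacna1e was also past the fold, higher, in 5xFAD against wild type in nuclei with Y-linked UMIs only, and in neuron MAGL-KO against 5xFAD where only Xist UMIs were present. Cluster 18, in which Cacna1e was at 940 to 1028 CPM, held 97 nuclei with Y-linked UMIs only and 21 with Xist UMIs only in 5xFAD. The corresponding nuclei numbered 26 and 64 where the label is astrocyte MAGL-KO, and 26 and 52 where it is global MAGL-KO. Its part in the opposite ratios was not tested.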

How the results depend on the processing

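No paired analysis was possible because a group is a single library, and nothing in the labels links one library to another. The class contrasts keep each library as a block. With no replicate block the counts of called members were 11 between inhibitory and excitatory, 12 between CA1 and granule, 12 between CA3 and granule, 7 between CA3 and CA1, 9 between Lhx6 and Adarb2 and 15 between precursor and oligodendrocyte nuclei, and Scn7a lost its call between CA1 and granule nuclei. Leaving out each library in turn gave 10 to 12, 12 to 14, 12 to 14, 7 to 7, 8 to 9 and 15 to 16 in the same order. No called member was called in the opposite direction under any alternative run. Classes from marker scores gave 5 called members between inhibitory and excitatory nuclei (11 in the main analysis) and 3 between Lhx6 and Adarb2 nuclei (9). With the members in the clustering no Lhx6 class was named, so that contrast has no value.

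Counts of members past the fold between genotypes were small and moved easily. CA3 was not among the classes counted under the alternatives. For 5xFAD against wild type, granule nuclei went from 0 to 1 with a pseudocount of 1 CPM. CA1 went from 1 to 0 with size factors, marker scores, Xist nuclei only and without nuclei holding Xist and Y-linked UMIs. Inhibitory nuclei went from 1 to 0 with marker scores and Xist nuclei only, and to 2 with Y-linked nuclei only and without nuclei holding both. For the library labelled astrocyte MAGL-KO, granule nuclei went from 1 to 0 with size factors, without nuclei holding both and in clusters 0 and 1 alone, to 2 with a pseudocount of 1 CPM and Xist nuclei only, and to 3 with at least 20 UMIs. CA1 went from 0 to 2 with size factors, 1 with a pseudocount of 1 CPM and 4 in Xist nuclei only. Inhibitory nuclei went from 1 to 0 with size factors and to 4 in Xist nuclei only and in Y-linked nuclei only.

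For the library labelled neuron MAGL-KO, granule nuclei went from 2 to 5 with a pseudocount of 1 CPM, 1 with marker scores, 0 in Y-linked nuclei only, 4 without nuclei holding both and 0 in clusters 0 and 1 alone. CA1 went from 2 to 1 with marker scores and in Y-linked nuclei only. Inhibitory nuclei went from 0 to 1 with size factors, marker scores and without nuclei holding both, and to 5 in Xist nuclei only and in Y-linked nuclei only. For the library labelled global MAGL-KO, granule nuclei went from 5 to 1 in Y-linked nuclei only and in clusters 0 and 1 alone. CA1 went from 0 to 1 with a pseudocount of 1 CPM, with at least 20 UMIs and in Y-linked nuclei only, and to 2 in Xist nuclei only. Inhibitory nuclei went from 2 to 0 with marker scores and to 5 in Y-linked nuclei only. In each of these the cause was not tested. The other 111 values stayed within 1.5 times the main count. Leaving out nuclei holding both, and using clusters 0 and 1 or the mature oligodendrocyte cluster alone, were chosen after seeing the data. Classes with few nuclei, such as CA2 and astrocytes, limit the low members by depth.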
